A study of Mus musculus with 4 samples.

Results

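The genes described here are 10 members of the extracellular matrix system of the injured mouse spinal cord, chosen by their symbols among the 31053 genes of the matrices: the matrix proteins Fn1, Thbs1 and Tgfbi, the matrix metalloproteinases Mmp8, Mmp9, Mmp12, Mmp14 and Mmp19, and the tissue inhibitors Timp1 and Timp2. All 10 symbols were found. They were followed over sham, 3 days post injury (dpi) and 14 dpi in microglia, macrophages, monocytes and neutrophils. The study sequenced CD45+ cells, that is, leukocytes and microglia, sorted alive from the spinal cord of C57BL/6 mice of both sexes and 3 months of age. A moderate contusion was set at the thoracic cord after laminectomy, and sham mice had the laminectomy without the contusion. The sham, 3 dpi and 14 dpi libraries were dissociated with actinomycin D (ActD), an inhibitor of transcription that keeps genes from being switched on during digestion. A further sham library came from the standard dissociation. The study gives the mice of the single-cell experiment as a total over its groups, and how many entered each library is not given in the sources used here.

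There was 1 library per condition, so no difference between conditions could be set against a spread between animals, and none was tested. Unique molecular identifiers (UMIs), which mark each captured RNA molecule, were added up over the cells of a class in a library and divided by the class total (counts per 1000000 UMIs, CPM). Intervals are 95% and cover counting error only, exact Poisson for a level and exact conditional Poisson for a ratio. A gene was called apart between libraries when its CPM differed at least 2-fold with at least 20 UMIs in the pair. The same rule was applied to every gene, and the share of all genes called is printed beside the counts, except those under alternative settings. Levels are not compared between genes, because capture differs from transcript to transcript. The matrices of the standard sham and 3 dpi libraries carry software version 3.0.1 and those of the ActD sham and 14 dpi libraries 3.1.0. Conditions and runs of the software cannot be told apart in this respect.

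The libraries held 2439 to 11631 barcodes and 27447471 to 129935880 UMIs, and 2135 to 9078 cells were kept. Any pair of libraries shared 3 to 36 barcodes. Cells were named from marker genes after clustering without the members, so each class below stands for cells that were like that type. Microglia numbered 1551, 884 and 3938 in the sham, 3 dpi and 14 dpi libraries. Macrophages numbered 142, 3940 and 341, monocytes 20, 62 and 745, and neutrophils 101, 1801 and 1393. All sham macrophages lay in 3 clusters that the marker rule named border-associated, after the resident macrophages of the meninges and vessels. Cluster 15 (48 cells) was led by Lyve1 and Mrc1 and had this name at all times, unlike the others. Cluster 8 (51 cells) was led by class II genes and was named as dendritic cells at 3 and 14 dpi. Cluster 4 (43 cells, led by Mgl2 and Cd163) held injury-associated macrophages at 3 dpi and classical monocytes at 14 dpi. At 3 dpi, 3712 of the 3940 macrophages lay in injury-associated clusters, and at 14 dpi 265 of 341. The monocytes of the sham and 3 dpi libraries were all named as the non-classical, patrolling type, and at 14 dpi 426 of 745 were of the classical type with Ccr2 and Vcan. The 62 monocytes of 3 dpi became 526 with each library clustered alone, 714 at a resolution of 1.2 and 414 with each cell named on its own. Cluster 4, which gave the classical monocytes of 14 dpi, held 1236 cells named injury-associated macrophages at 3 dpi. Whether cells like classical monocytes lay among these was not tested. Neutrophils were all named mature at 3 dpi, whereas 40 of 101 in the sham library and 527 of 1393 at 14 dpi were named immature. Yet the markers of mature neutrophils summed to 46226 CPM in the class at 3 dpi, against 353819 CPM in sham and 339000 CPM at 14 dpi. Neutrophils named mature were thus not alike over time. Microglia changed in make-up as well. Clusters 0, 3 and 5 held 152, 764 and 635 of them in the sham library. At 3 dpi these clusters held 298, 93 and 66, and at 14 dpi 2398, 880 and 660. A further 202 and 225 microglia of 3 dpi lay in clusters with cell-cycle genes such as Cenpf or Tk1 among their leading genes. A time course in any of these classes therefore compares different cells. Values within cluster 15, non-classical monocytes or mature neutrophils are given beside it where they differ. Median depth ranged from 2282 UMIs in neutrophils at 3 dpi to 19328.5 UMIs in microglia at 3 dpi. The summed level of 6 fibroblast markers was at most 18.9 CPM in the 4 classes of any of these libraries.

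Fibronectin and thrombospondin are laid down in wounds, where they bind cells, growth factors and clotted plasma proteins, and thrombospondin-1 can release latent TGF-β. The protein made from Tgfbi, itself a gene that TGF-β induces, links collagens to integrins. Matrix metalloproteinases are zinc enzymes that cut collagens, elastin, gelatin and basement membrane, and most are secreted in a latent form, although neutrophils store theirs in granules. The tissue inhibitors of metalloproteinases bind the active enzymes. In the contused cord, these proteins are known to take part in the opening of the blood-spinal cord barrier, the entry of leukocytes and the forming of the scar.

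By Ensembl identifier, the members were placed in GENCODE M21, built on the mm10 assembly that the submitters name. Mmp8 (ENSMUSG00000005800, chromosome 9, 7558456 to 7568485, plus strand) and Mmp12 (ENSMUSG00000049723, chromosome 9, 7344381 to 7369499, plus strand) lie near each other in the metalloproteinase cluster of chromosome 9. Fn1 (ENSMUSG00000026193) lies on chromosome 1 (71585520 to 71653200, minus strand), and Thbs1 (ENSMUSG00000040152) on chromosome 2 (118111876 to 118127133, plus strand). Chromosome 2 also holds Mmp9 (ENSMUSG00000017737, 164940780 to 164955850, plus strand). Mmp14 (ENSMUSG00000000957) lies on chromosome 14 (54431612 to 54445364, plus strand) and Mmp19 (ENSMUSG00000025355) on chromosome 10 (128790910 to 128800824, plus strand). Timp1 (ENSMUSG00000001131) lies on chromosome X (20870166 to 20874735, plus strand) and Timp2 (ENSMUSG00000017466) on chromosome 11 (118301069 to 118355740, minus strand). Tgfbi (ENSMUSG00000035493) lies on chromosome 13 (56609523 to 56639562, plus strand).

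The 250 bases before the start of transcription were available from RefSeq (GRCm38.p6) for 6 of the 10 members, in 7 windows. Those of Mmp8, Mmp12 and Timp1 are shown, because these members had different courses, low in neutrophils at 3 dpi, highest at 14 dpi and nearly absent outside 3 dpi. They were searched for TGANTCA, the core of an AP-1 site, which reads the same on both strands. The match is in capitals and the rest in lower case, 5′ to 3′ on the plus strand.
Mmp8, chr9:7558179-7558428: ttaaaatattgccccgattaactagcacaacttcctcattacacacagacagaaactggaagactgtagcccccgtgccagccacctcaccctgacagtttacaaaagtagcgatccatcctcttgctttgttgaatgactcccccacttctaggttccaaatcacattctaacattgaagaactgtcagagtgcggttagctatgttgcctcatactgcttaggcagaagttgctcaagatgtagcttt
Mmp12, window 2, chr9:7347124-7347373: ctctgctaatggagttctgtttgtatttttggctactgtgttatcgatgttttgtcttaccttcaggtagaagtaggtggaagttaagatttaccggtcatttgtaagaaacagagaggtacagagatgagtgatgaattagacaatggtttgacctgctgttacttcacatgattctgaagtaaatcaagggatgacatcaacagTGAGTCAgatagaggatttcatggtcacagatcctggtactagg
Timp1, chrX:20869916-20870165: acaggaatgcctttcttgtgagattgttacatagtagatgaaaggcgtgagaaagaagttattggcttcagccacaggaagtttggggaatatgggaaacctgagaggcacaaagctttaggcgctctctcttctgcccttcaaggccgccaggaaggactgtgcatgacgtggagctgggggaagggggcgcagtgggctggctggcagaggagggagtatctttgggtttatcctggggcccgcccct
Of the 7 windows, 1 held the motif, window 2 of Mmp12, with the match beginning 44 bases before the start. The motif was found in 2217 of 32851 such windows of all genes (6.75%). The match is a description of these letters and not a site of binding.

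At 3 dpi, most members stood higher than in the sham library in each class. At 14 dpi most were lower than at 3 dpi, with Mmp12 and Timp2 higher in microglia and macrophages and Mmp8 higher in neutrophils. In microglia, 8 of the 10 members were called higher at 3 dpi and none lower, against 15.2% of 12226 genes called higher and 32.6% lower (47.8% apart). With the CPM of lymphocytes of the same library subtracted, 3 were higher and 2 lower. In CPM, microglia at 3 dpi did not exceed lymphocytes in Thbs1, Mmp9, Mmp19 and Timp1. These genes had 3026, 214, 148 and 162 UMIs in 884 microglia and 477, 57, 20 and 26 in 668 lymphocytes. The lymphocytes were shallower, with medians of 2504 UMIs in B cells and 3595 in T and NK cells, against 19328.5 in microglia. At such unlike depths, comparing or subtracting CPM cannot give the part of free RNA in microglia. In macrophages 7 were higher and 1 lower of 10 (12.7% and 30.5% of all genes, 43.3% apart), and in neutrophils 6 were higher and 2 lower of 9 (53.2% and 7.12%, 60.3% apart). Most genes were thus higher in neutrophils of 3 dpi, and the members' count there lies near that share. In monocytes 5 of the 7 members with enough UMIs were higher and none lower (7.76% and 19.9% of all genes, 27.7% apart).

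Over the members, the ratio of 3 dpi to sham had a median log2 of 3.30 in microglia, with a sham level of 0 set to 3 UMIs, against −0.51 over all genes tested. It was 2.41 against −0.46 in macrophages, 1.31 against −0.36 in monocytes and 2.5 against 1.11 in neutrophils. Relative to all genes, the members were thus higher in each class, by the least in neutrophils. This median of all genes shifts every ratio of that class and is read with the values below.

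From 3 to 14 dpi, 7 members were called lower and 2 higher in microglia (15.3% and 11.1% of all genes, 26.4% apart). In macrophages 6 were lower and 2 higher (13.2% and 17.2%, 30.4% apart), and in neutrophils 7 were lower and 1 higher (44% and 8.86%, 52.8% apart). In monocytes 5 of 9 were lower and none higher (7.16% and 20.4%, 27.6% apart). At 14 dpi against sham, 4 of 9 members were higher and none lower in microglia (6.77% and 18.6% of all genes, 25.4% apart). In macrophages 4 were higher and 3 lower of 9 (5.53% and 14.1%, 19.7% apart). This split was 6 and 0 with the libraries merged, 6 and 1 at a resolution of 1.2, 6 and 2 with each cell named on its own or with doublets kept, and 4 and 1 with each library alone. In neutrophils 2 were higher and 1 lower of 7 (21.5% and 4.88%, 26.4% apart). In monocytes 6 of 9 were higher and 1 lower (11.5% and 10.6%, 22.1% apart), but 2 of the 6, Mmp9 and Timp1, rest on a sham level of 0 in 20 cells. At 14 dpi over sham, the members' median log2 ratio was 0.90 against −0.52 over all genes in microglia, 0.44 against −0.30 in macrophages, 0.55 against −0.08 in monocytes (1.82 without the members at 0 in sham) and −0.18 against 0.17 in neutrophils. For 14 over 3 dpi it was −1.73 against 0.01, −2.60 against 0.15, −1.37 against 0.30 and −2.52 against −0.86 in the same order. The comparisons share the sham or the 3 dpi library and are not independent of each other.

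**Figure D1:**
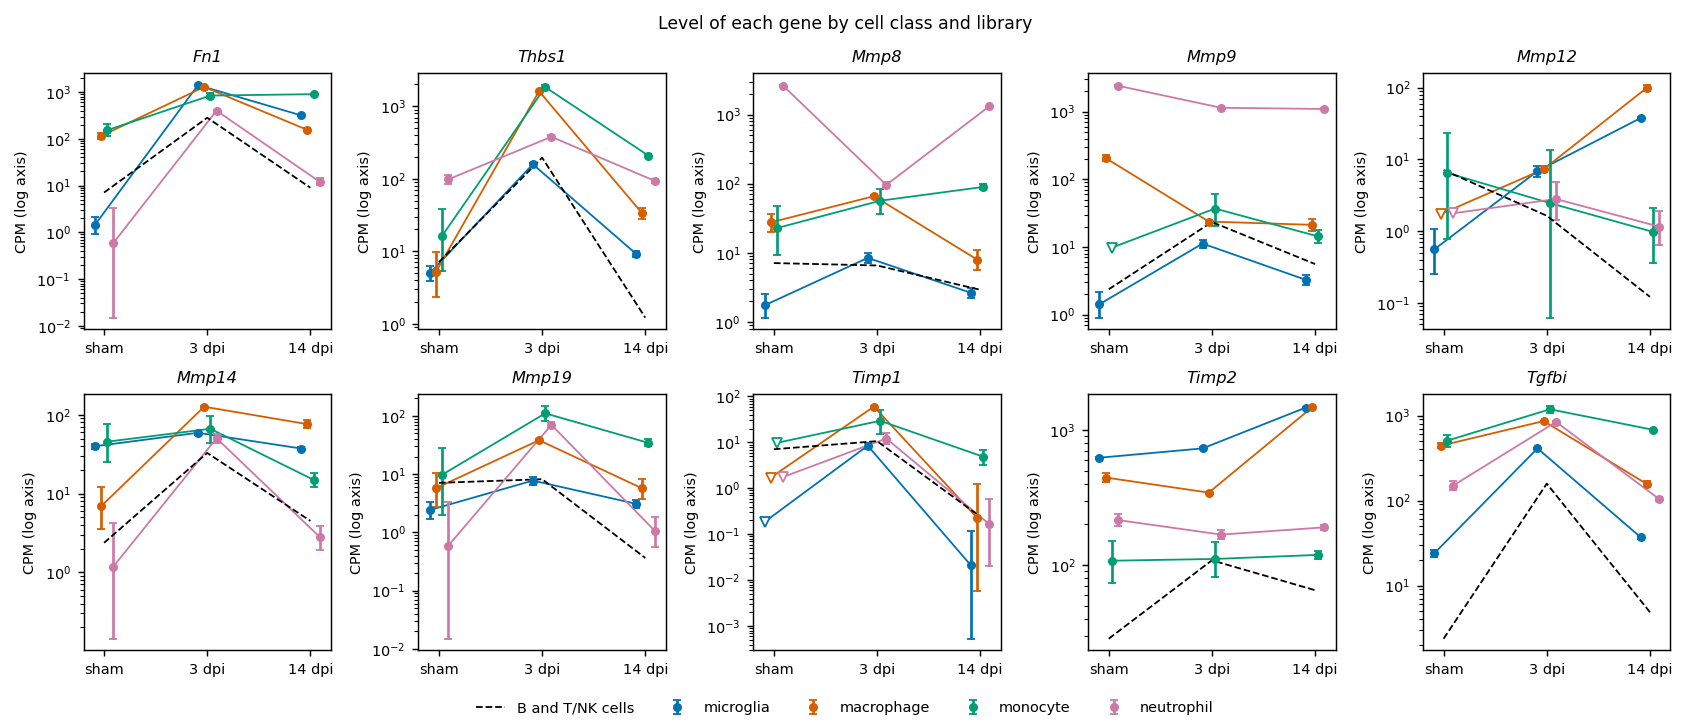
Levels of the 10 members (CPM, log axis) in microglia, macrophages, monocytes and neutrophils of the sham, 3 dpi and 14 dpi libraries, 1 library each, with bars for the 95% counting interval. Open triangles stand for 0 UMIs and are drawn at the level of 3 UMIs. The dashed line is the level in B, T and NK cells of the same library, in sham B cells only. Fn1 in microglia goes from 1.43 to 1409.9 and 318 CPM, while Timp2 in microglia is highest at 14 dpi (1465 CPM).

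Fn1, which encodes fibronectin, had the largest ratio to sham in microglia among the members with a UMI there. It stood at 1.43 CPM (0.904 to 2.14) in the sham library, 1409.9 CPM (1393 to 1427) at 3 dpi and 318 CPM (313 to 323) at 14 dpi. The sham value rests on 23 UMIs in 1551 cells. The log2 ratio was 9.95 (9.36 to 10.61) for 3 dpi over sham and 7.8 (7.21 to 8.46) for 14 dpi over sham. Sham microglia were thus nearly without Fn1 RNA, and at 14 dpi the level was lower than at 3 dpi but far above sham.

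In macrophages Fn1 stood at 115, 1289 and 155 CPM. The sham and 14 dpi values of macrophages were less than 2-fold apart (log2 0.44, 0.21 to 0.67), but Fn1 was called higher at 14 dpi with the libraries merged (log2 3.28), at a resolution of 1.2 (3.1), with each cell named on its own (2.84) and with doublets kept (2.29), and in cluster 15, where sham had none. Monocytes stood at 153, 842 and 903 CPM, with a log2 ratio of 0.1 (−0.06 to 0.26) for 14 over 3 dpi. Non-classical monocytes alone stood at 153, 842 and 167 CPM, so that at 14 dpi they were near sham (14 over 3 dpi log2 −2.33). Monocytes were also called lower at 14 than at 3 dpi with each library alone (log2 −1.18) and at a resolution of 1.2 (−1.67). In the clustering used here, the class with the highest level therefore changed with time. Microglia and macrophages were highest at 3 dpi, and monocytes at 14 dpi. With each library clustered alone or at a resolution of 1.2, monocytes were highest at 3 dpi as well, so this change rests on the clustering.

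Macrophages held 71.01% of the Fn1 UMIs of the 3 dpi library with 48.0% of its cells. A share of UMIs also follows depth, a median of 14575.5 UMIs in macrophages and 2282 in neutrophils of 3 dpi. The whole 3 dpi library stood at 1186 CPM of Fn1, against 1289 CPM in macrophages. At 14 dpi, microglia held 56.1% with 43.4% of the cells, and monocytes 20.7% with 8.21%. In the sham library, the largest share lay outside the 4 classes, in proliferating myeloid progenitors (58.6% of UMIs, 135 CPM).

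Within the classes, Fn1 was uneven. At 14 dpi, the microglia of the Lpl-led cluster 0 (2398 cells) held 425 CPM (418 to 432), whereas clusters 3 and 5, which P2ry12 and Siglech led in the sham library, held 21.1 and 34.8 CPM. At 3 dpi all 3 clusters stood high, at 1263, 802 and 1191 CPM. Among 3 dpi macrophages, cluster 4, led by Cxcl3 and Vcan, held 2850.1 CPM and the Fabp5- and Gpnmb-led cluster 1 818 CPM. Classical monocytes of 14 dpi held 1402 CPM against 167 CPM in non-classical ones. The border-associated cluster 15, which was present at all times, had no Fn1 UMI in 48 sham cells, 1949 CPM at 3 dpi and 87.5 CPM at 14 dpi.

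Lymphocytes were taken, in CPM, as a rough measure of RNA that is free in the droplets. Those of 3 dpi were shallower than its microglia and macrophages. B, T and NK cells together stood at 0, 283 and 8.99 CPM of Fn1 in the 3 libraries, highest at 3 dpi. In the sham library only 64 B cells were named among them, and their 0 UMIs allow up to 8.73 CPM. After each cell was thinned to 1000 UMIs, 56.2% (496 of 883 cells, 52.8 to 59.5%) of the microglia of 3 dpi had a Fn1 UMI, against 24.03% (31 of 129 cells, 16.9 to 32.3%) of B cells. The share was 25.2% in T and NK cells and 32.1% in neutrophils. Without thinning these shares were 93.4%, 55.8%, 59.7% and 57.5%, at median depths of 19328.5, 2504, 3595 and 2282 UMIs. The Fn1 of 3 dpi neutrophils (400.4 CPM) thus lay nearer to the level in lymphocytes than that of microglia (1409.9 CPM) and macrophages (1289 CPM) did. The study had picked Fn1 as a gene of some of its microglia and macrophage subsets in these same libraries, so its level there is not independent evidence.

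Thbs1, which encodes thrombospondin-1, was highest in monocytes and macrophages, and at 3 dpi. In macrophages it stood at 5.16 CPM (2.36 to 9.797), 1615 CPM (1605 to 1625) and 33.3 CPM (28.1 to 39.2) in the sham, 3 dpi and 14 dpi libraries. On the log2 scale, 3 dpi over sham was 8.29 (7.36 to 9.42) and 14 over 3 dpi −5.6 (−5.84 to −5.36). The 3 dpi value stands far above both others.

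In monocytes the Thbs1 levels were 16.3, 1837 and 208 CPM, with 100.1 CPM in the non-classical ones of 14 dpi. They were, in microglia, 4.96, 159 and 9.22 CPM. Microglia at 3 dpi did not exceed the lymphocytes of the same library (195 CPM), and the part of free RNA in their higher level was not tested. Macrophages held 93.1% of the Thbs1 UMIs at 3 dpi. After thinning, 64.3% (2533 of 3940 cells, 62.8 to 65.8%) of the 3 dpi macrophages had a Thbs1 UMI, against 16.3% of B cells and 10.1% of microglia (96.6%, 42.6% and 74.7% without thinning).

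Neutrophils already held Thbs1 in the sham library, at 98.1 CPM (83.7 to 114). They held 379 CPM at 3 dpi and 93.8 CPM at 14 dpi, so that the first and last values of the whole class were near each other (log2 −0.06, −0.3 to 0.18). Mature neutrophils alone held 91.02 CPM in the sham library and 222 CPM at 14 dpi, and immature ones 103 and 34.5 CPM. At 14 dpi, cluster 2, led by G0s2 and Acod1, held 502 CPM (454 to 555), against 150.1 CPM in the Retnlg-led cluster 9 and 64.2 CPM in the immature cluster 12. Among 3 dpi macrophages, cluster 4 held 2868 CPM and cluster 1 1392 CPM. The border-associated cluster 15 went from 1.84 to 563 and 35.3 CPM.

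Tgfbi was seen in the macrophages and monocytes of the sham library. Macrophages held 442 CPM (411 to 474) in the sham library, 862 CPM (855 to 869) at 3 dpi and 156 CPM (145 to 168) at 14 dpi. The first difference stayed just under 2-fold (log2 0.97, 0.86 to 1.07), and the 14 dpi value lay below sham (log2 −1.5, −1.65 to −1.35), but above it when the libraries were merged without integration (1.40). Monocytes held 505, 1187 and 681 CPM, with 584 CPM in the non-classical ones of 14 dpi. They were the highest class at 3 and 14 dpi, while in the sham library their interval overlapped that of macrophages. With the libraries merged, macrophages were highest at 3 and 14 dpi, and at a resolution of 0.3 at 3 dpi. Both settings lacked a monocyte class at 3 dpi.

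In microglia Tgfbi stood at 23.99, 411 and 37 CPM, and in neutrophils at 149, 843 and 104 CPM. The log2 ratio of 3 dpi over sham was 4.1 in microglia and 2.5 in neutrophils. Both classes were highest in the 3 dpi library, in which lymphocytes stood at 158 CPM. Mature neutrophils alone held 299.7, 843 and 286 CPM, a smaller step than that of the whole class. The thinned share was 52.1% of neutrophils and 29.6% of microglia at 3 dpi, against 15.5% of B cells (74.9%, 88.1% and 34.1% without thinning). Within the border-associated cluster 15, Tgfbi was 556, 593 and 363 CPM, which is less than 2-fold apart at any pair of times. The low class value of 14 dpi came with the injury-associated cluster 1, at 117 CPM.

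**Figure D2:**
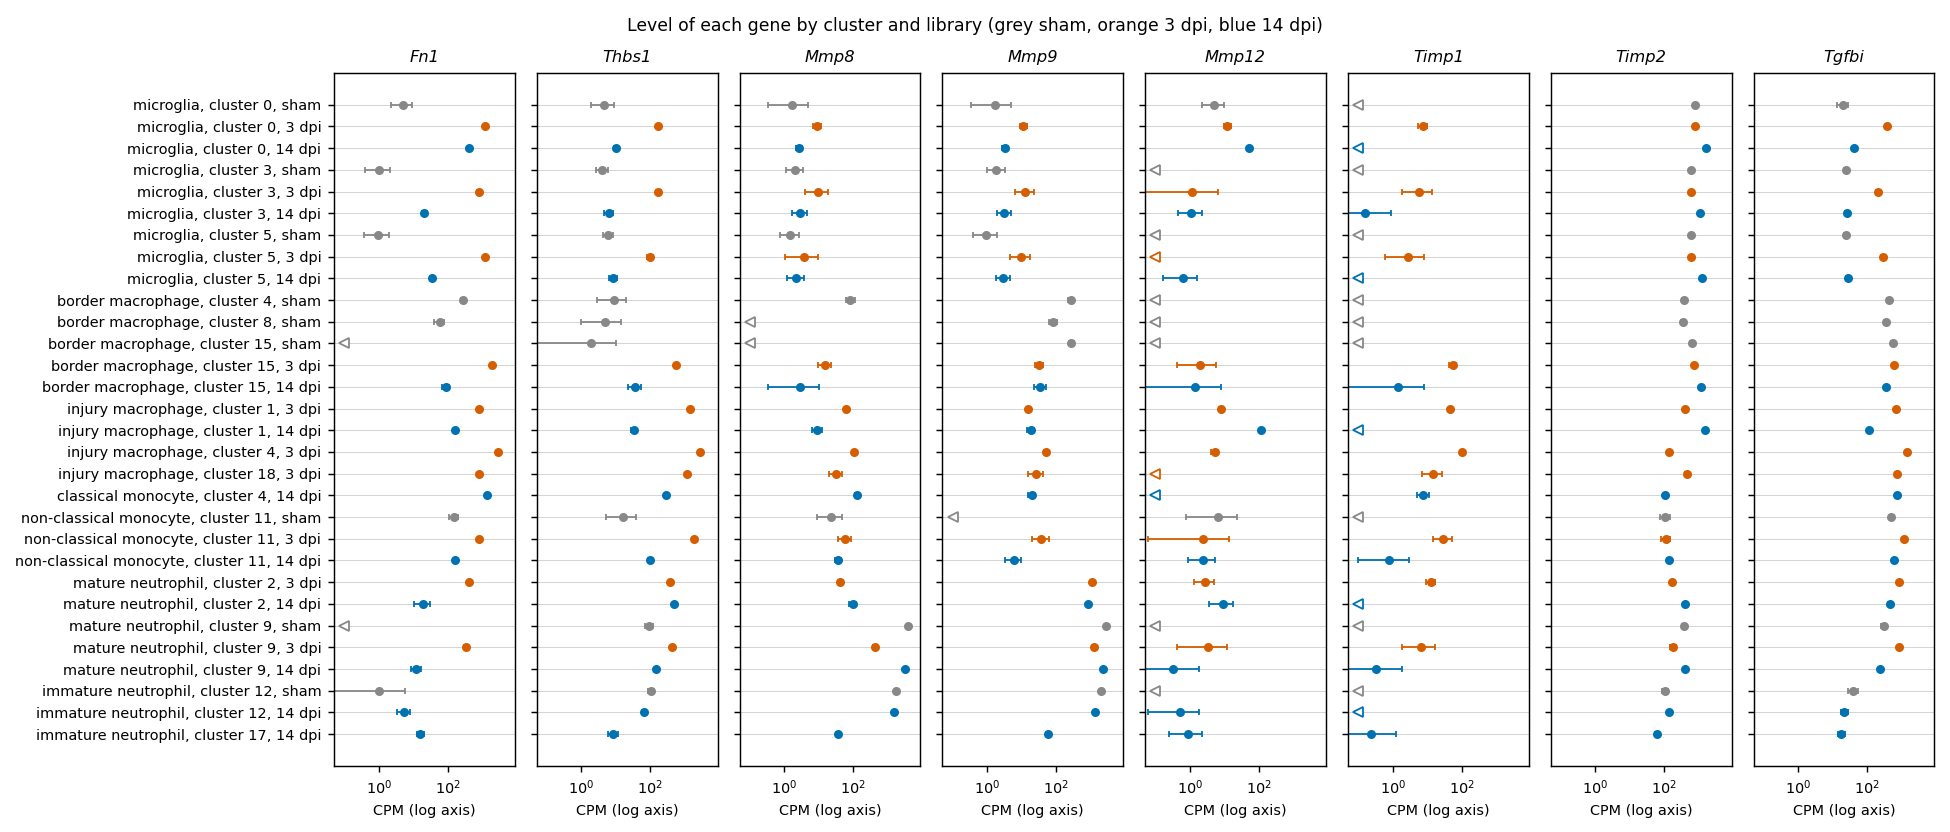
Levels of each member but Mmp14 and Mmp19 (CPM, log axis) in clusters of microglia, macrophages, monocytes and neutrophils, coloured by library (grey sham, orange 3 dpi, blue 14 dpi). Parts split from cluster 6 at 3 dpi are not drawn (202 and 225 microglia and 133 macrophages named border-associated). Points are 1 cluster of 1 library with its 95% counting interval, and open triangles at the left edge are clusters without a UMI. Mmp8 is highest in neutrophil cluster 9 of the sham library (3852 CPM) and of 14 dpi (3231 CPM), and Fn1 in macrophage cluster 4 of 3 dpi (2850.1 CPM).

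Mmp8 and Mmp9, the neutrophil collagenase and gelatinase B, are stored in the granules of neutrophils. Mmp8 stood in neutrophils at 2612 CPM (2536 to 2690.2) in the sham library, 96.1 CPM (86.99 to 106) at 3 dpi and 1325 CPM (1304 to 1345) at 14 dpi. The log2 ratio was −4.77 (−4.91 to −4.62) for 3 dpi over sham and 3.79 (3.64 to 3.93) for 14 over 3 dpi. The 3 dpi neutrophils were low in Mmp8, and those of 14 dpi stood about 2-fold below sham (log2 −0.98, −1.03 to −0.93).

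The thinned share of neutrophils with a Mmp8 UMI was 80.2% (81 of 101 cells, 71.1 to 87.5%) in the sham library, 5.13% (92 of 1794 cells, 4.15 to 6.25%) at 3 dpi and 50.1% (698 of 1392 cells, 47.5 to 52.8%) at 14 dpi. Without thinning it was 93.1%, 9.61% and 61.02%, at median depths of 13820, 2282 and 5844 UMIs. Other markers moved with it. The summed level of 8 markers of mature neutrophils was 353819, 46226 and 339000 CPM, and that of 6 markers of immature ones 75886, 956 and 84536 CPM. Injury-associated macrophage markers summed to 4313 CPM in 3 dpi neutrophils and to 2526 CPM in 3 dpi B cells. The part of these in the Mmp8 result was not tested.

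Of the 1801 neutrophils of 3 dpi, 1573 lay in cluster 2, led by Il1b and G0s2, which held 42.8 CPM (36.4 to 50). In cluster 9, present at all times, Mmp8 was 3852, 432 and 3231 CPM, so the 3 dpi value was low within 1 cluster as well. Immature neutrophils of cluster 12, led by Ltf and Ngp, held 1707 CPM in the sham library and 1539.5 CPM at 14 dpi. Cluster 17 of 14 dpi, led by Fcnb and Camp, held 36.3 CPM.

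Macrophages held a low level of Mmp8 at 3 dpi, 65.9 CPM (63.9 to 67.99), about 10 times that of the lymphocytes (6.56 CPM). With 48.0% of the cells kept and a median of 14575.5 UMIs, against 2282 in neutrophils, macrophages were many and deep at this time. The whole 3 dpi library stood at 52.1 CPM of Mmp8. Of the Mmp8 UMIs of the 3 dpi library, 82.7% lay in macrophages and 8.24% in neutrophils. In the sham and 14 dpi libraries, neutrophils held 93.9% and 93.6%. The levels were 103 CPM in macrophage cluster 4 and 60.9 CPM in cluster 1. All 48 Mmp8 UMIs of the sham macrophages lay in 43 cells of cluster 4, and the other 99 had none. The ratio of 14 dpi over sham in macrophages (log2 −1.78) rests on these cells, and it turned positive in 5 other ways of clustering or naming (0.18 to 5.15). Monocytes held 22.8, 56.6 and 89.8 CPM, with 126 CPM in the classical and 36.6 CPM in the non-classical ones of 14 dpi.

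Mmp9 was lower in neutrophils after injury as well. It stood at 2407 CPM (2334 to 2482), 1139 CPM (1107 to 1171) and 1093 CPM (1074 to 1111) in the sham, 3 dpi and 14 dpi libraries, and neutrophils held 88.4%, 71.2% and 96.6% of its UMIs. The log2 ratio was −1.08 (−1.14 to −1.02) for 3 dpi over sham, where all genes had a median of 1.11, and −0.06 (−0.11 to −0.01) for 14 over 3 dpi. Both injury libraries were lower than sham and, for the whole class, level with each other. Mature neutrophils alone held 2914, 1139 and 2039 CPM, so that among them 14 dpi stood above 3 dpi. Immature ones held 2037 CPM in the sham library and 656 CPM at 14 dpi.

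Cluster 2 held 1119.7 CPM of Mmp9 at 3 dpi and 862 CPM at 14 dpi, and cluster 9 2914, 1258 and 2341 CPM. Cluster 17 was again low, at 58.8 CPM. The thinned share of neutrophils was 90.1%, 54.6% and 62.6%, against at most 2.41% in the lymphocyte classes of any time (100%, 71.6%, 81.6% and 8.16% without thinning).

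A second source of Mmp9 was found in the sham library. Sham macrophages held 206 CPM (185 to 228), against 23.7 CPM in macrophages at 3 dpi and 21.2 CPM at 14 dpi. In cluster 15, led by Lyve1 and Mrc1, the levels were 282 CPM (239 to 330.3), 32.8 and 35.3 CPM, so the lower level was also seen within these cells. The thinned share in macrophages was 14.8% (21 of 142 cells, 9.39 to 21.7%) in the sham library and 2.41% at 3 dpi, where B cells had 2.33% (39.4%, 18.9% and 5.43% without thinning). Microglia held 1.43, 11.2 and 3.27 CPM, none above the lymphocytes of the same library (2.37, 23.4 and 5.59 CPM).

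**Figure D3:**
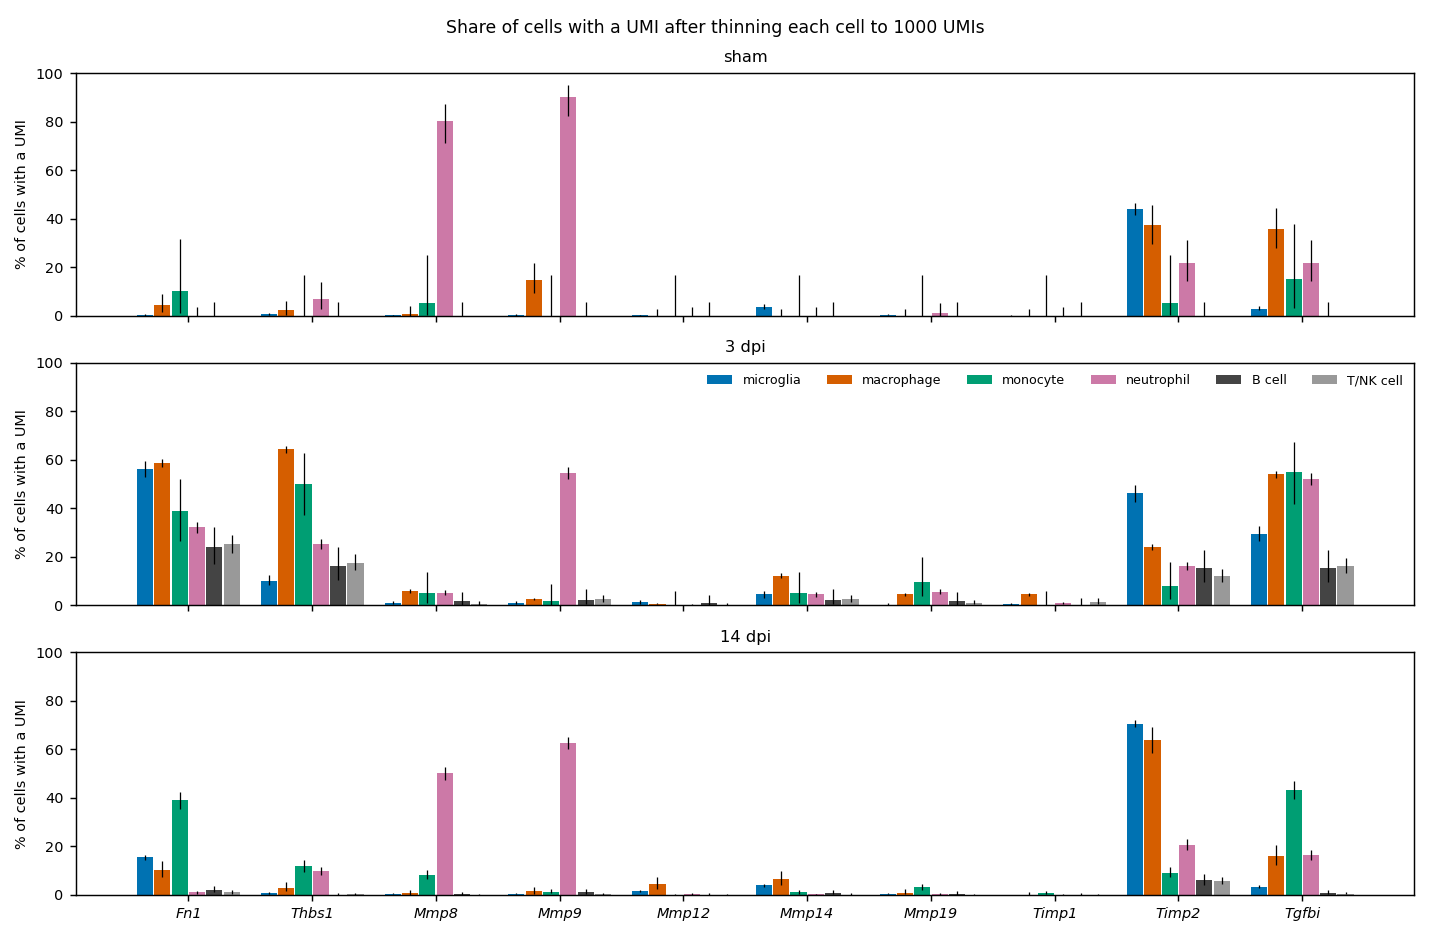
Share of cells (%) with at least 1 UMI of a member after each cell was thinned to 1000 UMIs, by class and library, with exact Clopper-Pearson 95% intervals. B, T and NK cells, in sham B cells only, stand as a rough measure of free RNA. Mmp8 is seen in 80.2% of sham neutrophils and 5.13% of those of 3 dpi, and Fn1 in 56.2% of 3 dpi microglia and 24.03% of B cells.

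Mmp12, the macrophage metalloelastase, came late. Macrophages held no Mmp12 UMI in the sham library, 7.31 CPM (6.65 to 8.01) at 3 dpi and 99.5 CPM (90.4 to 109) at 14 dpi. The 14 dpi level was at least 57.8-fold higher than sham, set against 3 UMIs in the sham class, and 14 over 3 dpi gave a log2 ratio of 3.77 (3.57 to 3.96). In microglia it stood at 0.558 CPM (0.255 to 1.06), 6.87 CPM (5.74 to 8.15) and 37.7 CPM (35.97 to 39.5), with a log2 ratio of 2.46 (2.2 to 2.72) for 14 over 3 dpi. Both classes were highest at 14 dpi. Within the border-associated cluster 15 alone, 14 over 3 dpi was −0.51, on 3 and 1 UMIs. In macrophages, the markers of microglia summed to 3021, 794 and 4561 CPM in the sham, 3 dpi and 14 dpi libraries. They summed to 9506 CPM in 14 dpi microglia. Injury-associated macrophage markers summed to 1292, 17942 and 5360 CPM in macrophages. The part of microglia-like cells in the 14 dpi macrophage level was not tested.

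The Mmp12 of 14 dpi was held by few cells. After thinning, 4.399% (15 of 341 cells, 2.48 to 7.15%) of macrophages and 1.397% (55 of 3938 cells, 1.05 to 1.81%) of microglia had a UMI. In B cells it was 0 of 485 cells, which allows a share of up to 0.619% (without thinning 11.1% in macrophages, 5.64% in microglia and 0.206% in B cells). The injury-associated cluster 1 held 118 CPM (108 to 130.1), and 435 of the 436 UMIs of macrophages. The border-associated cluster 15 held 1 UMI at 14 dpi. Among microglia, 1775 of the 1786 UMIs lay in the Lpl-led cluster 0 (51.3 CPM), and clusters 3 and 5 held 1.09 and 0.626 CPM. Monocytes held at most 6 UMIs at any time, and lymphocytes stood at 1.64 CPM at 3 dpi and 0.121 CPM at 14 dpi.

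Mmp14 encodes a metalloproteinase anchored in the cell membrane, which is known to activate the latent form of gelatinase A. Microglia held it throughout, at 39.9 CPM (36.9 to 43.1), 59.2 CPM (55.8 to 62.7) and 37.3 CPM (35.6 to 39.1), with no pair of times 2-fold apart. Macrophages stood at 6.88 CPM (3.56 to 12.02), 127 CPM (124 to 129.6) and 76.2 CPM (68.3 to 84.9). Sham macrophages were thus low (12 UMIs) and those of the injured cord high, with log2 ratios of 4.2 (3.4 to 5.16) and 3.47 (2.65 to 4.44) over sham.

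The border-associated cluster 15 went the same way for Mmp14, with 3.68, 113 and 36.7 CPM. At 3 dpi, lymphocytes stood at 32.8 CPM, neutrophils at 50.5 CPM and fibroblasts at 150.1 CPM. Monocytes were higher in Mmp14 than lymphocytes at each time, with 45.6, 66.5 and 14.96 CPM, and 14.9 CPM in the non-classical ones of 14 dpi. Of the Mmp14 UMIs, microglia held 83.96% in the sham library and 65.4% at 14 dpi, and macrophages 78.1% at 3 dpi.

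Mmp19, a metalloproteinase that is known to cut basement membrane proteins, was low in all classes of the sham library and peaked at 3 dpi. Monocytes held 9.77, 111 and 34.5 CPM, neutrophils 0.591, 70.3 and 1.07 CPM, and macrophages 5.73, 38.3 and 5.71 CPM. The log2 ratio of 3 dpi over sham was 2.74 (1.86 to 3.8) in macrophages. Neutrophils had 1 UMI in the sham library, which gives a log2 ratio of 6.9 (4.41 to 12.2). Monocytes were the highest class at 3 and 14 dpi, but neither with the libraries merged nor, at 3 dpi, at a resolution of 0.3. Both of these settings lacked a monocyte class at 3 dpi.

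Among 3 dpi macrophages, cluster 4 held 102 CPM of Mmp19, border-associated cluster 15 75.7 CPM and cluster 1 20.95 CPM. At 14 dpi, classical and non-classical monocytes were alike, at 35.8 CPM (29.9 to 42.5) and 32.6 CPM (25.9 to 40.5). Microglia, at 7.76 CPM, did not exceed the lymphocytes (8.196 CPM) at 3 dpi. The neutrophils of 3 dpi were above that level.

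Timp1, an inhibitor that is known to be induced in wounds, was seen almost only at 3 dpi. In the sham library, all named classes were without a UMI and 1 UMI lay in an unnamed cell. At 3 dpi, macrophages held 60.1 CPM (58.2 to 62.1), which is at least 34.95-fold above sham, and microglia 8.496 CPM (7.24 to 9.91). At 14 dpi, 1 UMI was left in macrophages, 1 in microglia and 30 in monocytes (4.88 CPM). Dendritic cells were the highest named class at 14 dpi, at 12 CPM (9.43 to 15.1) with 37.9% of the Timp1 UMIs. These 593 cells included 113 of cluster 18, led by Cxcl10 and Ifit2, which was named injury-associated macrophages at 3 dpi.

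Macrophages were not the class with the highest Timp1 level. The 52 fibroblast-like cells of the 3 dpi library stood at 626 CPM (581 to 673), dendritic cells at 145 CPM (135 to 156), and macrophages below both. The sort on CD45 should have removed fibroblasts. Macrophages held 68.1% of the Timp1 UMIs, and the 52 fibroblast-like cells 13.4%. The macrophage level was near that of the whole 3 dpi library (57.6 CPM). In microglia and neutrophils (12.2 CPM) the level was near that in lymphocytes (10.7 CPM). Macrophage cluster 4 held 102 CPM, cluster 1 46.3 CPM and border-associated cluster 15 55.6 CPM.

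Timp2, an inhibitor that many tissues make without injury, was highest in microglia and macrophages, and at 14 dpi. In microglia it stood at 623 CPM (611 to 635), 730.2 CPM (718 to 742) and 1465 CPM (1454 to 1476) in the sham, 3 dpi and 14 dpi libraries. The 3 dpi value lay within 2-fold of sham (log2 0.23, 0.19 to 0.27), and 14 over 3 dpi gave a log2 ratio of 1.0 (0.98 to 1.03), at the 2-fold line. In macrophages the levels were 444, 344 and 1469.5 CPM, with a log2 ratio of 2.1 (2.06 to 2.14) for 14 over 3 dpi. Both classes were highest at 14 dpi.

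At 14 dpi, Timp2 was high in all microglia clusters, at 1573 CPM in cluster 0, 1110.3 CPM in cluster 3 and 1238 CPM in cluster 5. The injury-associated macrophages of cluster 1 held 394 CPM at 3 dpi and 1530.5 CPM at 14 dpi, and cluster 4 of 3 dpi only 140.5 CPM. Macrophages of 14 dpi were also higher in microglia markers than those of 3 dpi, as given for Mmp12. The part of this in the Timp2 level was not tested. The border-associated cluster 15 held 626, 710.02 and 1153 CPM, with none of its steps 2-fold. Monocytes (107, 111 and 119 CPM) and neutrophils as a whole class (215, 168 and 189.96 CPM) stayed within 2-fold. Mature neutrophils alone held 363, 168 and 393 CPM, lowest at 3 dpi. Immature ones held 107 CPM in the sham library and 96.2 CPM at 14 dpi. Microglia held 81.8%, 37.3% and 81.5% of the Timp2 UMIs.

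The thinned share of cells with a Timp2 UMI was 44.1%, 46.1% and 70.6% (2780 of 3938 cells, 69.1 to 72.01%) in microglia. It was 37.3%, 23.9% and 63.9% in macrophages. In sham B cells it was 0 of 64 cells, which allows a share of up to 4.69%, and in those of 3 and 14 dpi 15.5% and 5.98% (6.25%, 25.6% and 20.8% without thinning, against 96.9%, 94.5% and 99.1% in microglia and 94.4%, 78.9% and 97.4% in macrophages). Neutrophils had 21.8%, 16.2% and 20.6%.

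By the class with the highest level, neutrophils came first in Mmp8 and Mmp9 in each of the 3 libraries. At 3 dpi, however, macrophages held 82.7% of the Mmp8 UMIs. Monocytes were highest in Tgfbi and Mmp19 at 3 and 14 dpi. In the sham library their intervals overlapped those of macrophages for both genes, Mmp19 rested on 3 UMIs, and 6 other settings put Tgfbi highest in macrophages. Of these 6, only naming each cell on its own kept a sham monocyte class of at least 20 cells. In the others, monocytes could not be highest. Timp2 was highest in microglia in the sham and 3 dpi libraries, and at 14 dpi macrophages and microglia overlapped in their intervals. Mmp14 was highest in sham monocytes, whose interval overlapped that of microglia, in fibroblast-like cells at 3 dpi, whose interval overlapped that of macrophages, and in macrophages at 14 dpi. With 3 other settings, macrophages were highest in Mmp14 at 3 dpi. Timp1 was highest in fibroblast-like cells at 3 dpi and in dendritic cells at 14 dpi. Thbs1 was highest in neutrophils in the sham library and in monocytes at 3 and 14 dpi. Fn1 was highest in monocytes in the sham library, where the interval overlapped that of the progenitors, in microglia at 3 dpi and in monocytes at 14 dpi. Mmp12 was highest in dendritic cells at 3 dpi (8.02 CPM), with an interval that overlapped that of macrophages, and in macrophages at 14 dpi. Other settings moved some of these. With each library alone or at a resolution of 1.2, monocytes were highest in Fn1 at 3 dpi. With the libraries merged or at a resolution of 0.3, macrophages were highest in Thbs1 and Tgfbi and neutrophils in Mmp19 at 3 dpi. These settings had no monocyte class at 3 dpi, so monocytes could not be highest there. When merged, the 23 macrophages of 14 dpi were highest in Fn1, Thbs1, Mmp19 and Tgfbi, and microglia in Mmp12. Of 28 pairs of a member and a library, 12 to 26 kept the same class under other ways of clustering, naming and filtering the cells. Where a setting named no such class in a library, the pair could not keep it.

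**Figure D4:**
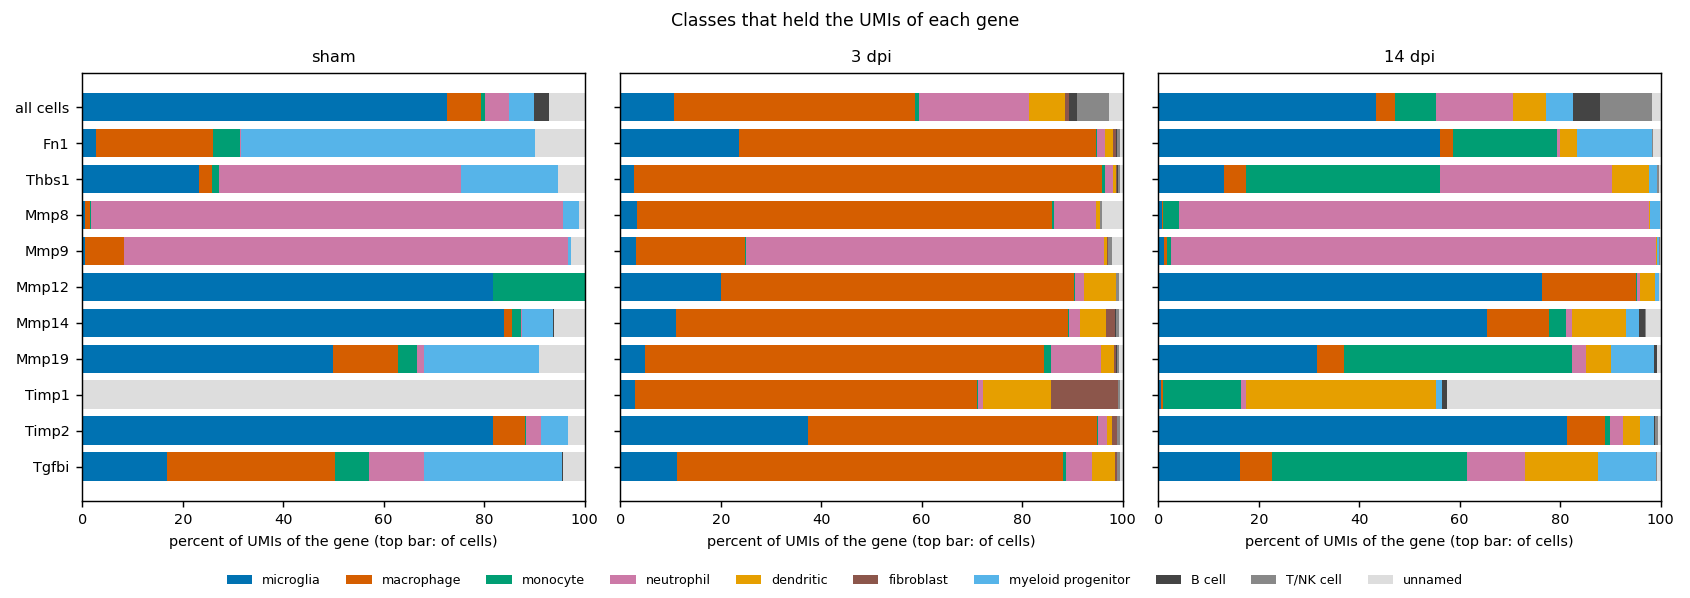
Share (%) of the UMIs of each member that lay in each class of the sham, 3 dpi and 14 dpi libraries, beside the share of cells of that class. Shares of UMIs also follow the depth of a class, which the share of cells does not show. Neutrophils hold 93.9% of Mmp8 in the sham library and 8.24% at 3 dpi, and microglia hold 81.5% of Timp2 at 14 dpi.

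The sham library of the standard dissociation was set beside that with ActD, which asks how far the protocol bears on these genes. When both sham libraries were clustered together, the standard and ActD libraries held 2579 and 1446 microglia, 150 and 142 macrophages, 212 and 27 monocytes and 385 and 91 neutrophils. In microglia, 3 of 9 members were called higher with the standard protocol and none lower, against 7.57% and 21.9% of 11894 genes (29.5% apart). The members' median log2 ratio was 0.77 there, against −0.53 over all genes. The members called were Fn1 (3.74 against 1.005 CPM), Mmp9 (2.95 against 1.41 CPM) and Mmp12 (1.77 against 0.06698 CPM). All 3 stood under 4 CPM in both libraries, and Fn1 in standard microglia was not above standard lymphocytes (3.76 CPM). The microglia compared were not alike. An Spp1- and Lpl-led cluster and one led by interferon genes counted as microglia in the standard library (91 and 35 cells) and were left unnamed in the ActD library (89 and 43 cells). Clustered with the injury libraries, the microglia of the same ActD library held 0.558 CPM of Mmp12 (9 UMIs in place of 1).

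Thbs1 was called higher with the standard protocol in neutrophils, monocytes and macrophages. It stood at 1821 CPM (1774 to 1869) in neutrophils with the standard and 99.5 CPM (84.7 to 116) with the ActD protocol (log2 4.19, 3.97 to 4.43). In monocytes it stood at 1888 and 18.9 CPM, and in macrophages at 26.4 and 3.62 CPM. In microglia the difference stayed under 2-fold (9.196 and 5.02 CPM). The standard level of sham monocytes and neutrophils was thus as high as or above that of the same classes at 3 dpi with ActD. The cells compared were not alike. Standard monocytes were led by Fn1, S100a4 and Thbs1, and those with ActD by Ly6i and Ace. Of the standard neutrophils, 345 were named immature and 40 mature, whereas all 91 with ActD were named mature. The part of this in the Thbs1 differences was not tested.

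Monocyte Fn1 stood at 1110.1 CPM after standard dissociation and 376 CPM with ActD, where the monocytes differed in type as well as number. Mmp9 was lower with the standard protocol in macrophages (85.9 against 221 CPM), and Mmp8 in neutrophils was near equal (2396 and 2619 CPM). Timp1 had at most 0.959 CPM in any class named here of either sham library. In all, macrophages had 1 member higher and 1 lower of 6 with the standard protocol (6.35% and 19.5% of all genes, 25.9% apart). Monocytes had 4 higher and 1 lower of 8 (7.47% and 16.1%, 23.6% apart), and neutrophils 2 higher and none lower of 6 (18.7% and 8.34%, 27% apart). Protocol and software version changed together between the sham libraries and cannot be told apart.

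**Figure D5:**
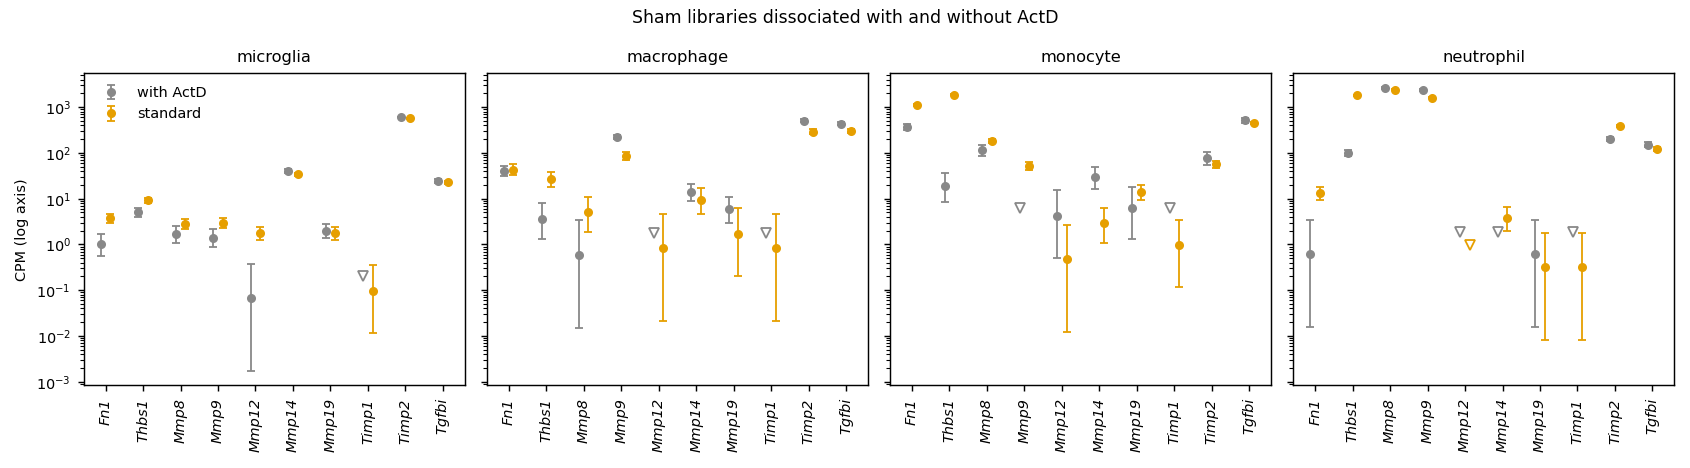
Levels of the 10 members (CPM, log axis) in 4 classes of the 2 sham libraries, standard against ActD dissociation, with 95% counting intervals, and open triangles for 0 UMIs at the level of 3 UMIs. Thbs1 in neutrophils is 1821 CPM after standard dissociation and 99.5 CPM with ActD, while Mmp8 in neutrophils is 2396 and 2619 CPM.

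Other genes of matrix turnover were put through the same rule, and their medians below are log2 ratios of 3 dpi over sham with a level of 0 set to 3 UMIs. In microglia, 15.2% of all genes were called higher and 32.6% lower at 3 dpi over sham. Of 17 other metalloproteinase genes of the matrices, 6 had enough UMIs in microglia at 3 dpi over sham, of which 2 were higher and 4 lower, such as Mmp2, gelatinase A (12.7, 5.35 and 8.53 CPM in the sham, 3 dpi and 14 dpi libraries). Of the ADAM and ADAMTS proteases, 3 of 8 were higher and 1 lower, with Adam8 at 1.36, 156 and 26.4 CPM and Adamts1 at 10.9, 114 and 12.7 CPM. Adam8 was high in macrophages as well (4.01, 373 and 49.8 CPM). The medians in microglia were −1.87 for the metalloproteinases and 0.28 for the ADAM and ADAMTS genes, against −0.51 over all genes. Adam8 and Adamts1 had the same order over the libraries as Fn1 and Thbs1.

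Of 6 inhibitors and plasmin system genes in microglia, 2 were higher and 1 lower at 3 dpi (15.2% and 32.6% of all genes). Serpine2, a protease inhibitor, stood in macrophages at 20.1, 8.86 and 129.9 CPM, lowest at 3 dpi. Plau, the urokinase, had the same order there, at 42.4, 7.87 and 55.2 CPM. Among other matrix genes in microglia, 8 of 13 were higher and 2 lower at 3 dpi, beside the same shares of all genes. They included Spp1, which encodes osteopontin (35.2, 24410.5 and 4454 CPM), Ecm1 (0.434, 100.3 and 15.1 CPM) and Emilin2 (0.434, 57.8 and 9.12 CPM). The medians were −0.11 for the inhibitors and plasmin genes and 1.27 for the other matrix genes. Sparc, a matrix-binding glycoprotein, was lowest at 3 dpi (3675, 798 and 1842 CPM).

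Of 13 matrix receptors in microglia, 6 were higher and 4 lower at 3 dpi (15.2% and 32.6% of all genes). Their median was 0.19. Cd44, the receptor for hyaluronan, stood at 2.67, 57.01 and 34.9 CPM, and Itga4, a subunit of a fibronectin receptor, at 3.22, 18.3 and 23.7 CPM. In macrophages, 4 of 14 were higher and 5 lower, beside 12.7% and 30.5% of all genes (median −0.41 against −0.46 over all genes). Itga5, the fibronectin receptor subunit, stood there at 11.5, 59.95 and 30.6 CPM, and Itga4 at 154, 34.6 and 82.4 CPM. In neutrophils, 9 of 13 were higher and 2 lower, beside 53.2% and 7.12% of all genes (median 1.95 against 1.11), with Lrp1, an endocytic receptor of thrombospondin, at 14.2, 248 and 12.96 CPM. Neutrophil Mmp25, a membrane-bound metalloproteinase of these cells, stood at 60.3, 4.44 and 33.9 CPM, in the order of Mmp8. Plaur, the urokinase receptor, had that order too (271, 31.3 and 205 CPM).

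The genes most like each member were ranked by Pearson's r of log2(CPM + 10) over 21 combinations of class and library with at least 50 cells, among 12004 genes. These points share libraries and depth, so r is a description. Mmp8 was most like Padi4 (0.97), Cd177 (0.95) and Pygl (0.95), which are known in neutrophils. Mmp9 was most like Gm13431 (0.93), Fpr2 (0.93) and Fpr1 (0.92), the last 2 being formyl peptide receptors. Gm13431 was not checked for reads shared with another gene. The genes most like Fn1 were Msr1 (0.91), a scavenger receptor, Coro1c (0.88) and Tubb6 (0.87). Thbs1 was most like Tgm2 (0.90), Por (0.89) and Vegfa (0.89), and Mmp19 like Dpep2 (0.92), Nr4a1 (0.89) and Tgm2 (0.88). For Mmp12 these were Dkk2 (0.95), Apoc4 (0.92) and Pianp (0.90), for Timp2 Galc (0.90), Man1c1 (0.89) and Camk1 (0.88), and for Tgfbi Emilin2 (0.90), Arpc1b (0.87) and Wfdc17 (0.86). For Mmp14 they were Rai14 (0.93), Nrp2 (0.89) and Vat1 (0.87), and for Timp1, which was near 0 in most points, Cgnl1 (0.94), Spred3 (0.91) and Cfap45 (0.90). Among the members themselves, the highest values were those of Mmp8 with Mmp9 (0.85) and of Thbs1 with Mmp19 (0.80).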

How the data were processed

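The files that the authors deposited for the 4 libraries of 10x single-cell RNA-seq hold unnormalized UMI counts, made with Cell Ranger on mm10 according to the submitters' processing notes. The filters of the study were applied (at least 600 genes, at most 10% mitochondrial UMIs, no cell with both Itgam and a lymphoid marker). Doublets were removed by Scrublet scores in scanpy 1.11.5 at 0.8% per 1000 barcodes (42 to 931 cells), in place of the DoubletFinder of the study. Libraries were integrated in Seurat 5.3.0 (R 4.3.3) with 2000 features, 50 dimensions and a resolution of 0.6, leaving out every gene of the lists, and clusters were named per library by marker lists, with thresholds set after the clusters were seen. The 3 ActD libraries and the 2 sham libraries were integrated apart. UMIs were summed per class (at least 20 cells) and library, with scipy 1.17.1 for intervals, and edgeR 4.0.16 gave only the TMM factors of an alternative. The scripts were tested on simulated data. The members, lists and markers were chosen with earlier results of these data known. Beside the members, names came from at most 5 genes per list in microglia, macrophages and neutrophils, those with the largest absolute log2 ratio of either injury library over sham (at least 200 UMIs in the pair). The 3 genes most like each member were named too. A gene that met this rule is not reported here.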

Additional observations from a re-analysis of the deposited data

Results flagged for a closer look

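Some members were called higher in one class and lower in another between the same pair of libraries. The difference between the classes was not tested in any of these cases. For 3 dpi over sham, the log2 ratio of Mmp8 was 2.28 in microglia, 1.26 in macrophages and 1.31 in monocytes, but −4.77 in neutrophils. That of Mmp9 was 2.98 in microglia, at a level below that of lymphocytes, but −3.12 in macrophages and −1.08 in neutrophils.

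For 14 dpi over sham, Mmp8 had log2 ratios of −1.78 in macrophages and 1.98 in monocytes. Mmp9 had 1.2 in microglia, −3.28 in macrophages and −1.14 in neutrophils. Mmp14 had 3.47 in macrophages, −1.61 in monocytes and 1.25 in neutrophils, where the level was 2.81 CPM at 14 dpi and rested on 2 UMIs in the sham library.

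For 14 over 3 dpi, Mmp8 had log2 ratios of −1.68 in microglia, −3.05 in macrophages and 3.79 in neutrophils. Mmp12 had 2.46 in microglia and 3.77 in macrophages against −1.28 in neutrophils, where it was at most 2.80 CPM. Microglia, macrophages and neutrophils of these libraries were made up of different clusters, whose part in these results was not tested.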

How the results depend on the processing

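No paired analysis was possible because each condition had 1 library. Of 151 counts of members under alternative settings, 136 stayed within 1.5 times of the reported one, and 1288 of 1440 calls of single members were kept. Subtracting the CPM of lymphocytes gave 5 members apart instead of 8 in microglia at 3 dpi over sham (3 higher and 2 lower) and 6 (3 higher and 3 lower) instead of 3 between the sham protocols, where Fn1 had no level left. TMM factors gave 7 instead of 4 in microglia at 14 dpi over sham and 5 instead of 3 between the protocols, and a resolution of 0.3 gave 1. In neutrophils at 14 dpi over sham, 3 became 6 with doublets kept and 5 without a minimum of UMIs. In monocytes, the missing minimum gave 8 instead of 5 at 3 dpi over sham, and clustering each library alone 8 instead of 5 for 14 over 3 dpi. Merging without integration left 3 of 8 for macrophages at 14 over 3 dpi, where it named only 23 macrophages at 14 dpi. The highest class was kept in 18 of 28 cases with each library clustered alone and in 12 when merged. Neither setting had a sham monocyte class, and merging had none at 3 dpi, so cases led by these could not be kept. Counting only clusters with the same name in all 3 libraries, a choice added after the data were seen, gave 4 instead of 7 in macrophages, 1 instead of 3 in neutrophils and 3 instead of 7 in monocytes at 14 dpi over sham. The cause of these shifts was not tested.

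Some log2 ratios changed sign. Mmp8 in macrophages at 14 dpi over sham (−1.78) became 0.18 with each library alone, 3.53 merged, 3.67 at a resolution of 1.2, 2.30 with each cell named on its own and 5.15 with doublets kept, so it has no settled direction. When merged, Tgfbi became 1.40 in the same comparison, and Mmp8 0.15, Mmp19 1.01 and Tgfbi 0.43 in macrophages at 14 over 3 dpi. In same-name clusters, Mmp12 became −0.51 in macrophages at 14 over 3 dpi and Mmp14 −1.09 in neutrophils at 14 dpi over sham. Mmp12 in neutrophils at 14 over 3 dpi became 1.85 with each cell named on its own and 1.42 with doublets kept. With each cell named on its own, Mmp8 in monocytes became −0.47 (3 dpi) and −0.59 (14 dpi) and Mmp14 in monocytes 0.27 (14 dpi) over sham. After the lymphocyte CPM was taken off, Thbs1 and Mmp19 had no level left in microglia of 3 dpi, although these lymphocytes were shallower than the microglia. Some alternatives gave no value for monocytes, as fewer than 20 were named in a library, and leaving out border-associated clusters left no sham macrophages. The low depth of 3 dpi neutrophils and the 20 sham monocytes limit what can be seen of rare transcripts.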
